A study of Mus musculus with 12 samples.

Results

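The 7 genes described here, Fos, Fosb, Fosl2, Jun, Junb, Jund and Atf3, encode transcription factors whose RNA was followed by sequencing in sorted macrophages of the mouse mammary duct, in the strain C57BL/6. They were taken from the deposited gene table by name, with their levels at the study's stages already known, so their levels and differences between stages are given as a description without a test. The table held 27179 genes, of which 12672 passed the filter on low counts, and all 7 were among those. The 4 groups of 3 libraries came from virgin mice, from mice at day 16.5 of pregnancy, from lactating mice and from mice 1 month after weaning. All were females of the same strain with no genotype or treatment named, and the design text calls the 3 libraries of a stage biological replicates. The age of the mice, the day of lactation, the sort gates and whether animals were pooled are not stated in the labels or the design text.

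AP-1 is a family of dimeric transcription factors whose subunits join through leucine zippers and bind DNA through the basic stretch beside them. FOS proteins need a JUN partner to bind DNA, whereas JUN proteins can also pair with each other. ATF3 belongs to the ATF/CREB branch of the same superfamily, can pair with JUN proteins, and in mouse macrophages is known as a brake on cytokine genes induced through Toll-like receptors. Most of these genes are immediate early genes. Their transcription starts within minutes of a growth factor, cytokine, stress or tissue dissociation signal without new protein synthesis, and many of their mRNAs are short-lived because of AU-rich elements. The ductal macrophage lies between the layers of the mammary epithelium, an organ that grows in pregnancy, makes milk in lactation and regresses after weaning.

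Known control of these genes runs in part through short elements close to the transcription start, so the promoter windows of the 5 genes with a match to a searched element are shown from RefSeq (GRCm38.p6), from 250 bases before to 50 bases after the annotated start, 5′ to 3′ on the gene's strand. Capitals mark TGACG, the core of the cAMP response element searched on both strands (CGTCA when it lies on the other strand), TGACATCA, the variant AP-1 site known from Jun and searched on both strands, and TATAAA on the gene's strand. The Fos window lies at chr12:85473640-85473939 (+), that of Fosb at chr7:19309996-19310295 (-), that of Jun at chr4:95052173-95052472 (-), that of Junb at chr8:84978699-84978998 (-) and that of Atf3 at chr1:191183284-191183583 (-).
Fos: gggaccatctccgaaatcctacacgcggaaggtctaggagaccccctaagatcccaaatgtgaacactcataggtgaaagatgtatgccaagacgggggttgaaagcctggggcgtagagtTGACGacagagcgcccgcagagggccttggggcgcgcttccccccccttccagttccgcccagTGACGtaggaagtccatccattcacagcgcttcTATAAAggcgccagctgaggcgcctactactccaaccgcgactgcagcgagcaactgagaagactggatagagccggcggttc
Fosb: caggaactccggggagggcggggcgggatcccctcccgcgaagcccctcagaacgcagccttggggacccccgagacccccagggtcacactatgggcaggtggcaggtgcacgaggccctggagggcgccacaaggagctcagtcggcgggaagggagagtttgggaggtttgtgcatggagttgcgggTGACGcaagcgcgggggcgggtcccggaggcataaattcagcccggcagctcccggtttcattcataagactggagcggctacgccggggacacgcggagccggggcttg
Jun: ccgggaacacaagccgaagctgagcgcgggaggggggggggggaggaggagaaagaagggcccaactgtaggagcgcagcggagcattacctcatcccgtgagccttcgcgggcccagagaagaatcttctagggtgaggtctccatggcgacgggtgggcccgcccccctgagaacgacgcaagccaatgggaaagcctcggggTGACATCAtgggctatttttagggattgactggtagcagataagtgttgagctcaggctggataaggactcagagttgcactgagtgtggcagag
Junb: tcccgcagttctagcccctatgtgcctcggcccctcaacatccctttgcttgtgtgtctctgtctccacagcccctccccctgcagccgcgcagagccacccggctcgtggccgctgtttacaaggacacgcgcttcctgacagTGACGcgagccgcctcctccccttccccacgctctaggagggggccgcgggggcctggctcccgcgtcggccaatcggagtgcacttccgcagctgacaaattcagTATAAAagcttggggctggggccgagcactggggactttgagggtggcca
Atf3: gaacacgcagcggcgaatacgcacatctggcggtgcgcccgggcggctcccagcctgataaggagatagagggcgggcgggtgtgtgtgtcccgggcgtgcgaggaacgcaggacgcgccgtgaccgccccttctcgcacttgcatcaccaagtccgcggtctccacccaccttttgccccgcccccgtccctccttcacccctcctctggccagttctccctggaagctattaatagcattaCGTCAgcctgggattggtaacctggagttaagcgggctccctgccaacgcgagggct

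TGACG occurred in 4 of the 7 windows, those of Fos, Fosb, Junb and Atf3, against 20.8% of the 32851 RefSeq windows of the same length. In Fos it began 129 and 66 bases before the start, in Fosb 60 bases and in Junb 106 bases before it. In Atf3 the match lay on the other strand and began 7 bases before the start. TGACATCA occurred in Jun alone among the 7, beginning 45 bases before the start, and in 3.62% of all windows. TATAAA occurred in Fos, beginning 33 bases before the start, and in Junb, against 8.32% of all windows. The Junb match began at the RefSeq start itself, which lies 30 bases upstream of the start in GENCODE. None of the 7 windows held the full element TGACGTCA, which would overlap a TGACG match (1.79% of all windows), the common AP-1 site TGANTCA (7.81%) or the CArG box (1.63%), each searched on both strands. A match describes letters in a window and not a site in use. Sequence farther upstream was not searched. The lack of a match, such as that of the CArG box in Fos, therefore says nothing about elements outside the window. The windows of Fosl2 and Jund held no match. The RefSeq start of Jund lies 1210 bases upstream of the GENCODE start, and the GENCODE start of Fosl2 lies 671 bases upstream of the RefSeq start. Neither window therefore holds the GENCODE start. For Fosb the RefSeq start lies 67 bases upstream of the GENCODE start. GENCODE has an Atf3 transcript that starts 34706 bases upstream of the RefSeq start.

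The libraries held between 6926273 and 21204704 counts in genes, and the 7 genes together took between 0.194% and 0.747% of them. Levels below are in CPM, the usual count per fixed library size, here after TMM scaling of the libraries. All 14 listed macrophage markers were detected at every stage, although Mertk had 7.8, 0.731 and 0.0878 CPM in lactating libraries. Their share of counts was 3.04 to 3.67% in the virgin libraries and 5.9 to 6.37% in the pregnant ones. It was 1.67 to 4.42% during lactation and 3.96 to 4.34% after weaning. Lyz2 alone averaged 26199 CPM in pregnancy, against 3928 CPM in virgin, 5819 CPM in lactating and 9567 CPM in post-weaning libraries. Cd14 went the other way, with 2024 CPM in pregnancy against 4297, 10107 and 5293 CPM in the same order. The third lactating library stood apart. The 9 milk-protein genes took 7.33% of its counts and summed to 67175 CPM, against 2284 and 2158 CPM in the other lactating libraries. It had the lowest macrophage share of all libraries and the fewest detected genes (10178). Its Malat1 level was 40881 CPM without TMM scaling, and the other lactating libraries had 9541 and 13175 CPM. The milk-protein genes summed to 0 to 79.1 CPM in virgin, 1619.6 to 13520 CPM in pregnant and 442 to 1974 CPM in post-weaning libraries. Fibroblast markers summed to 25.7 to 376 CPM in virgin, 2.34 to 6.58 CPM in pregnant, 0 to 21.8 CPM in lactating and 39.3 to 160 CPM in post-weaning libraries. Endothelial markers summed to 5.94 to 43.6 CPM in virgin, 0.538 to 2.29 CPM in pregnant, 3.99 to 213 CPM in lactating and 11.1 to 53.6 CPM in post-weaning libraries. T and NK cell markers summed to 171 to 348 CPM in virgin, 107 to 128 CPM in pregnant, 176 to 455 CPM in lactating and 141 to 217 CPM in post-weaning libraries. Of these 8 genes Il7r made up most of the sum. Cd3e and Cd3g, which encode CD3 chains, averaged 0 CPM in pregnancy and lactation, whereas Trac averaged 3.15 and 2.91 CPM there. In lactation Ncr1 averaged 4.48 CPM and Klrb1c 2.5 CPM. The 6 B cell markers summed to 252 to 435 CPM in virgin, 165 to 235 CPM in pregnant, 324 to 417 CPM in lactating and 270 to 489 CPM in post-weaning libraries, mostly from Ighm, with Pax5 at 0 counts in every library. The endothelial, T and NK cell and B cell sums were, like the sum of the 7 genes below, lowest in all 3 pregnant libraries. Neutrophil markers summed to at most 3.12 CPM in any library, with S100a8 at 0 counts in every virgin, lactating and post-weaning library. Luminal epithelium markers summed to 124 to 723 CPM in virgin and 229 to 338 CPM in pregnant libraries. They summed to 149 to 268 CPM in lactating and 222 to 849 CPM in post-weaning libraries. Basal epithelium markers summed to 70.4 to 185 CPM in virgin and 47 to 93.3 CPM in pregnant libraries. Their lactating sums were 78.3 to 546 CPM and their post-weaning sums 71 to 271 CPM. Mast cell markers summed to at most 34.8 CPM and dendritic cell markers to at most 145 CPM. The part of other cells in the results below was not tested. In such bulk libraries fewer expressing cells and less RNA per cell cannot be told apart.

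Across the 4 stages the 7 genes together were lowest in pregnancy. Their summed level was 4808, 6609 and 6942 CPM in the virgin libraries, 2468, 1873 and 2244 CPM in the pregnant libraries, 4637, 3881 and 3007 CPM in the lactating libraries and 6483, 5932 and 5607 CPM in the post-weaning libraries. The pregnant libraries lay below all others, and the lactating libraries lay below every virgin and post-weaning library. Junb was the most abundant of the 7 per unit of length, with a mean of 968 RPKM (CPM divided by the deposited gene length in kilobases) over the 12 libraries, which put it at the 99.5th percentile of the tested genes. Fos followed with 544 RPKM and Atf3 with 532 RPKM, at percentiles 99.1 and 99.0. Jun averaged 78.4 RPKM, Jund 59.7 RPKM, Fosb 20.2 RPKM and Fosl2 12.2 RPKM.

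**Figure D1:**
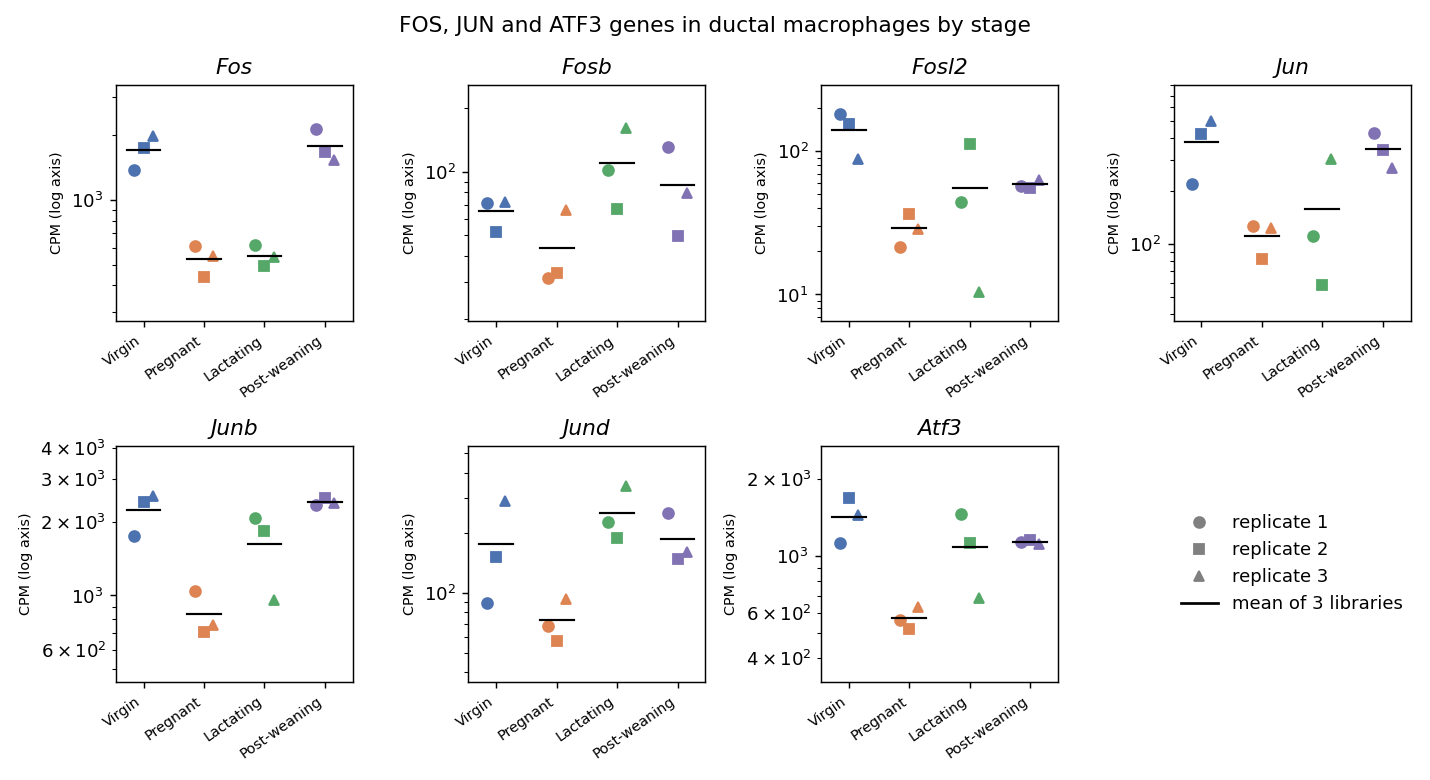
Level of each of the 7 genes by stage, in CPM on a log axis, with 1 point per library (shape gives the replicate number) and a line at the mean of 3 libraries. Fos sits between 438 and 618 CPM in all pregnant and lactating libraries and between 1375 and 2132 CPM in all virgin and post-weaning libraries, while Jund is highest on average in lactation.

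Fos, the founding member of its family (chr12:85473890-85477274), separated the stages into a low and a high pair. It had 1375, 1731 and 1979 CPM in virgin libraries, 610.3, 438 and 547 CPM in pregnant libraries, 618, 492 and 541 CPM in lactating libraries and 2132, 1672 and 1528 CPM in post-weaning libraries. The pregnant and lactating values overlapped, as did the virgin and post-weaning values, and every library of the low pair lay below every library of the high pair. The means were 1695 ± 304, 532 ± 87.3, 550.2 ± 63.7 and 1777 ± 315 CPM (SD, n = 3 each) in the same order of stages. The level was 3.19-fold lower in pregnancy than in virgin mice (log2 fold change -1.67 ± 0.22, SE) and 3.08-fold lower in lactation than in virgin mice (-1.62 ± 0.22). After weaning it was 3.34-fold higher than in pregnancy (1.74 ± 0.22) and 3.23-fold higher than in lactation (1.69 ± 0.22). Lactating against pregnant libraries differed by 0.05 ± 0.21, and post-weaning against virgin libraries by 0.07 ± 0.21, both less than the SE.

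Fosb (chr7:19302696-19310118), whose product comes in a full-length form and a shorter splice form that counts per gene do not separate, was lower than Fos in every library and took another course. It had 71, 52.1 and 72.3 CPM in virgin, 31.5, 33.2 and 65.8 CPM in pregnant, 102, 66.9 and 161 CPM in lactating and 131, 49.9 and 79.7 CPM in post-weaning libraries. Lactation held its highest mean, 110.1 ± 47.8 CPM, followed by post-weaning libraries with 87 ± 41.3 CPM, virgin libraries with 65.1 ± 11.3 CPM and pregnant libraries with 43.5 ± 19.3 CPM (SD, n = 3 each). Neighbours in that order overlapped, and lactation and pregnancy were the only stages whose libraries did not (1.34 ± 0.44 on the log2 scale, lactating over pregnant). Without the third lactating library the other lactating libraries averaged 84.5 CPM, below the post-weaning mean. Post-weaning over lactating libraries was -0.34 ± 0.43 on the log2 scale with all libraries and 0.1 ± 0.44 without it. The top rank of lactation therefore rested on that library.

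Fosl2 (chr5:32136472-32157840), which encodes FRA2, a member without the strong activation domain of FOS, was highest in virgin mice. Its levels were 182, 156 and 88.5 CPM in virgin, 21.5, 36.7 and 28.7 CPM in pregnant, 44, 113 and 10.4 CPM in lactating and 56.9, 55.8 and 63.4 CPM in post-weaning libraries. Every virgin library exceeded every pregnant and every post-weaning library, whereas the lactating libraries spanned more than the full range of the post-weaning ones. The log2 fold change was -2.29 ± 0.64 in pregnant against virgin libraries, the largest of the 7 in size and also the least precise. It was -1.28 ± 0.62 in post-weaning against virgin libraries, so that Fosl2 was the 1 member whose post-weaning libraries did not overlap with the virgin ones. The third lactating library was 7.51 times lower than the mean of the other lactating libraries, 10.4 against 78.5 CPM.

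Jun (chr4:95049036-95052222), the prototype AP-1 subunit and a partner for all FOS proteins, had 219, 425 and 503 CPM in virgin, 126, 82.6 and 124 CPM in pregnant, 111, 58.3 and 306 CPM in lactating and 428, 344 and 271 CPM in post-weaning libraries. The pregnant libraries lay below all virgin and post-weaning libraries, and the first and second lactating libraries did too. The third lactating library, with 306 CPM, was 3.62 times the mean of the other lactating libraries (84.6 CPM). The log2 fold change was -1.78 ± 0.52 in pregnant against virgin libraries and 1.65 ± 0.52 in post-weaning against pregnant libraries. Lactating against pregnant libraries differed by 0.52 ± 0.50 with all libraries and by -0.44 without the third lactating library, so its direction rested on that library. Lactating against virgin libraries differed by -1.27 ± 0.51 with all libraries and by -2.22 without it. Jun shares 232 exon bases in GENCODE with the antisense gene Junos, which was not a row of the table. Whether the counting used strand is not stated in the labels or the design text.

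Junb (chr8:84976909-84978748), which encodes a JUN protein with weaker activation of many targets than JUN, had 1753, 2415 and 2565 CPM in virgin, 1047, 709.6 and 756 CPM in pregnant, 2084, 1841 and 963 CPM in lactating and 2348, 2511 and 2392 CPM in post-weaning libraries. Pregnant libraries were below all virgin and post-weaning libraries, and they overlapped with lactation through the third lactating library alone. The level was 2.68-fold lower in pregnancy than in virgin mice (-1.42 ± 0.29) and 2.89-fold higher after weaning than in pregnancy (1.53 ± 0.29). Lactation stood between, with 0.96 ± 0.29 against pregnancy and -0.46 ± 0.28 against virgin libraries. In GENCODE, where Junb runs from 84974484 to 84978718, it shares 173 exon bases with Prdx2 on the opposite strand. Whether these bases lie within the Junb gene that was counted was not checked. The mean level of Prdx2 was 72.2 to 100.6 CPM per stage.

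Jund (chr8:70697739-70700616), the JUN gene known for a more constant level than its relatives in many cells, had its lowest mean in pregnancy and its highest in lactation. It had 88.4, 150.4 and 289.7 CPM in virgin, 68.2, 57.1 and 93 CPM in pregnant, 227, 188 and 342 CPM in lactating and 252, 148 and 159.7 CPM in post-weaning libraries. The lactating libraries were all above the pregnant ones, 3.46-fold on average (1.79 ± 0.42), and the post-weaning libraries were too (1.36 ± 0.41). Virgin libraries overlapped with those of every other stage. Lactating and post-weaning libraries overlapped too, with -0.44 ± 0.40 for post-weaning over lactating. Without the third lactating library this was -0.09 ± 0.42, and the other lactating libraries averaged 207.5 CPM. Lactating against virgin libraries differed by 0.52 ± 0.40 with all libraries and by 0.19 ± 0.42 without the third lactating library. In GENCODE Jund shares 877 exon bases with the antisense gene Gm11175, which was not a row of the table and was not analysed here.

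Atf3 (chr1:191170296-191183333) had 1119, 1680.2 and 1445 CPM in virgin, 564, 516 and 629.9 CPM in pregnant, 1451, 1122 and 683 CPM in lactating and 1135, 1151 and 1113 CPM in post-weaning libraries. Every pregnant library was below every library of the other stages. Its mean was 570.0 ± 57 CPM in pregnancy, against 1415 ± 282 CPM in virgin mice (SD, n = 3 each), a 2.48-fold lower level (-1.31 ± 0.26). Lactation (0.93 ± 0.26) and the post-weaning stage (0.99 ± 0.26) both exceeded pregnancy, and they differed from each other by 0.06 ± 0.26 (post-weaning over lactating).

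**Figure D2:**
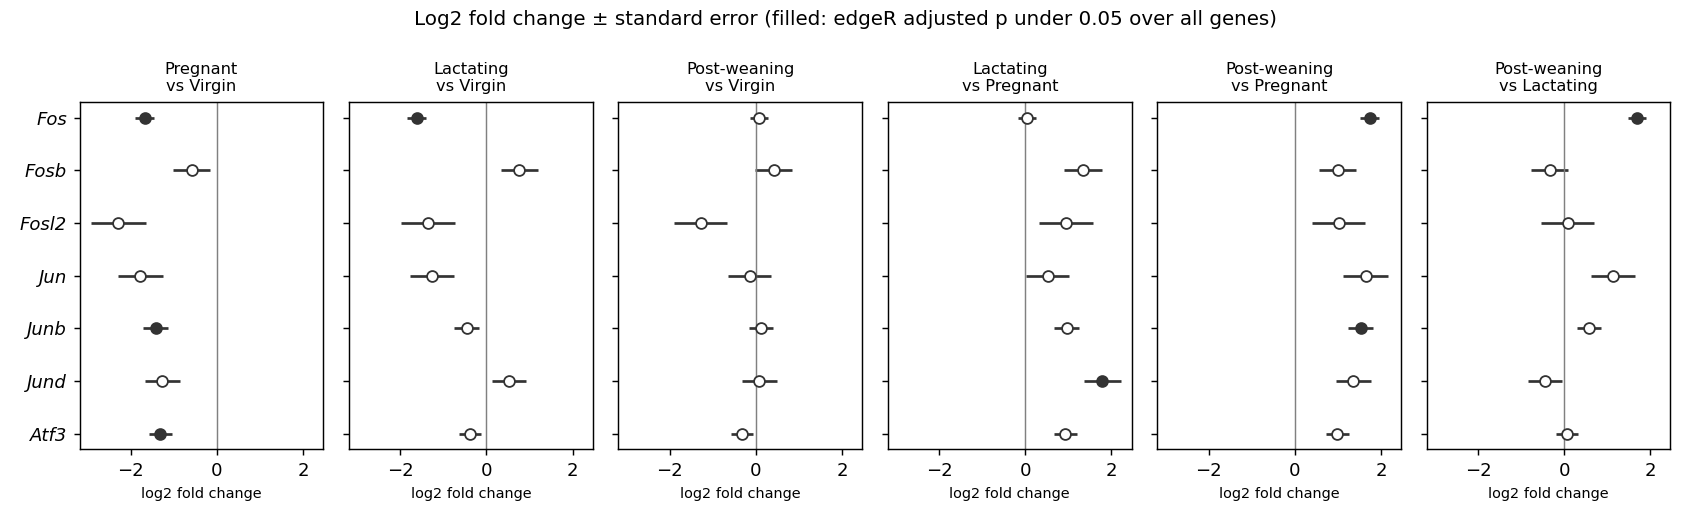
Log2 fold change of each gene in each of the 6 comparisons of stages, with bars of 1 SE from the edgeR fit to 12 libraries. Filled points had an adjusted p under 0.05 over all tested genes: Fos, Junb and Atf3 in pregnant against virgin, Fos in lactating against virgin, Jund in lactating against pregnant, Fos and Junb in post-weaning against pregnant, and Fos in post-weaning against lactating.

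A gene is named called where its adjusted p in edgeR, over all tested genes, was under 0.05. Since the 7 genes were picked on these levels, nothing is read from the number of calls among them. In pregnant against virgin libraries 3 of the 7 were called, all lower (Fos, Junb and Atf3), beside 1.32% of all tested genes called and 0.876% called lower. In 5 of the 7 the pregnant libraries lay below all virgin libraries, as in 10.7% of all genes, and the median log2 fold change was -1.42, against 0.03 over all tested genes. In lactating against virgin libraries Fos was the 1 member called, lower, beside 1.94% of all genes called and 0.9% called lower. Fos was also the 1 member there whose groups did not overlap, beside 9.34% of all genes without overlap and lower. The median was -0.46 for the 7, against -0.06 for all. Both comparisons share the virgin libraries, and the 6 comparisons share stages throughout, so their values stand side by side and are not independent.

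In lactating against pregnant libraries all 7 had a higher mean, although the log2 fold change of Fos turned to -0.23 with library totals in place of TMM. Jund was called, beside 3.85% of all genes called and 2.65% called higher, and Fosb, Jund and Atf3 did not overlap, beside 9.5% of all genes without overlap and higher. The median was 0.94 for the 7, against -0.14 for all. In post-weaning against pregnant libraries all 7 again had a higher mean, and Fos and Junb were called, beside 0.718% of all genes called and 0.576% called higher. All but Fosb lay above pregnancy without overlap, beside 14% of all genes, and the median was 1.36 for the 7, against 0.01 for all. In post-weaning against lactating libraries Fos was called, higher, beside 0.923% of all genes called and 0.458% called higher. There Fos and Junb did not overlap, beside 12.8% of all genes without overlap and higher, and the medians were 0.08 for the 7 and 0.08 for all. In post-weaning against virgin libraries 0 of the 7 and 0% of all genes were called by edgeR, with 765 genes at an unadjusted p under 0.05, while DESeq2 called 125 genes and limma-voom 11, with 0 of the 7 in either. Fosl2 alone did not overlap there, beside 6.55% of all genes without overlap and lower.

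The calls of Fos in pregnant against virgin, lactating against virgin and post-weaning against lactating libraries were kept when any of the 12 libraries was left out. In post-weaning against pregnant libraries the Fos call was lost without pregnant library 2 or 3. The calls of Junb and Atf3 in pregnant against virgin libraries and of Junb in post-weaning against pregnant libraries were kept in 3 of 12 such fits, those without virgin library 1, lactating library 1 or lactating library 3. The Jund call was kept in 5 of 12, and was lost without any 1 pregnant library, lactating library 1 or 3, or post-weaning library 2 or 3. In fits to only the 6 libraries of a comparison the calls of Fos in lactating against virgin and in post-weaning against lactating libraries and that of Jund were lost, where 0, 3 and 147 of all genes were called. With library totals in place of TMM the Jund call was lost as well. Without the third lactating library the members called were Fos, Fosl2, Jun, Junb and Atf3 in pregnant against virgin libraries (5 of 7, beside 3.26% of all genes). The Jund call in lactating against pregnant libraries was lost. The members called were Fos and Jun in lactating against virgin (beside 3.1%), Junb and Atf3 in lactating against pregnant (beside 5.13%), Fos, Jun, Junb and Atf3 in post-weaning against pregnant (beside 2.29%) and Fos and Jun in post-weaning against lactating libraries (beside 1.8%), with 0 in post-weaning against virgin libraries (beside 0.0745%).

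Junb led the 7 genes in every library, while the shares of Fos, Atf3 and Jund differed between stages. As a share of the summed RPKM of the 7, Junb took 41.1 ± 0.329% in virgin mice, 42.2 ± 4.35% in pregnancy, 46.3 ± 7.53% in lactation and 44.8 ± 3.53% after weaning (SD, n = 3 each). Fos took 27.4 ± 1.42%, 23.6 ± 0.687%, 14.5 ± 3.56% and 28.7 ± 3.29% in the same order, with every lactating library below every library of the other stages. Atf3 took 24.2 ± 2.35%, 27.1 ± 3.26%, 28.7 ± 3.49% and 19.5 ± 1.07%, lowest in all 3 post-weaning libraries. Jund took 1.98 ± 0.891%, 2.36 ± 0.549%, 5.12 ± 2.98% and 2.18 ± 0.538%, and its lactating shares of 3.42, 3.39 and 8.56% exceeded those of every other library. Jun took 3.13 to 3.93% on average at each stage, Fosb 0.602 to 1.72% and Fosl2 0.342 to 0.870%.

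**Figure D3:**
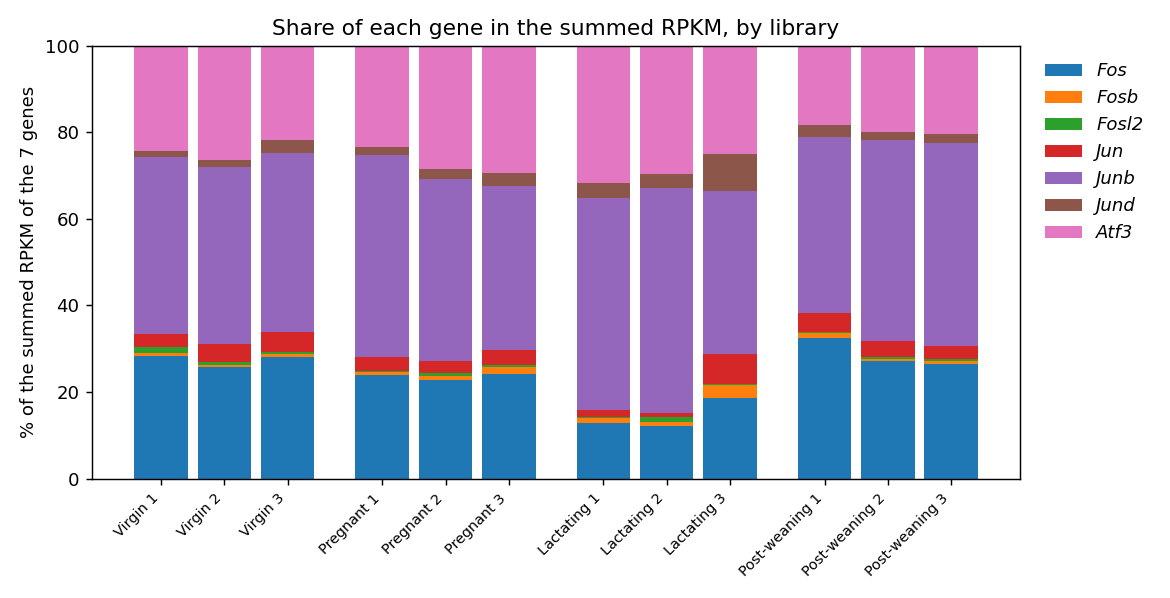
Share of each gene in the summed RPKM of the 7, in percent, with 1 bar per library grouped by stage. Fos takes 12.2 to 18.6% of the lactating bars, against 22.8 to 32.5% of all other bars, while Junb, at 37.7 to 52.0%, is the largest share in every bar.

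Ratios within a library do not depend on the scaling of that library. Atf3 over Fos was 0.862, 1.03 and 0.773 in the virgin libraries, 0.978, 1.25 and 1.22 during pregnancy, 2.49, 2.42 and 1.34 during lactation and 0.564, 0.729 and 0.771 after weaning. Every lactating ratio was above every ratio of the other stages. The post-weaning and virgin ratios nearly touched, with 0.771 as the highest post-weaning and 0.773 as the lowest virgin value. Junb over Fos was 3.84, 4.26 and 2.02 in lactating libraries, above all others, which ran between 1.25 and 1.95. Fos over Fosb was 10.9, 13.3 and 6.05 in lactating libraries, below all others, which ran between 15 and 60.5. In the third lactating library the ratios of Atf3 and of Junb to Fos were the closest of the lactating libraries to the other stages. Junb over Jun ran between 8.84 and 15.3 outside lactation and was 32.6, 54.7 and 5.45 in the 3 lactating libraries, the last being that library.

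**Figure D4:**
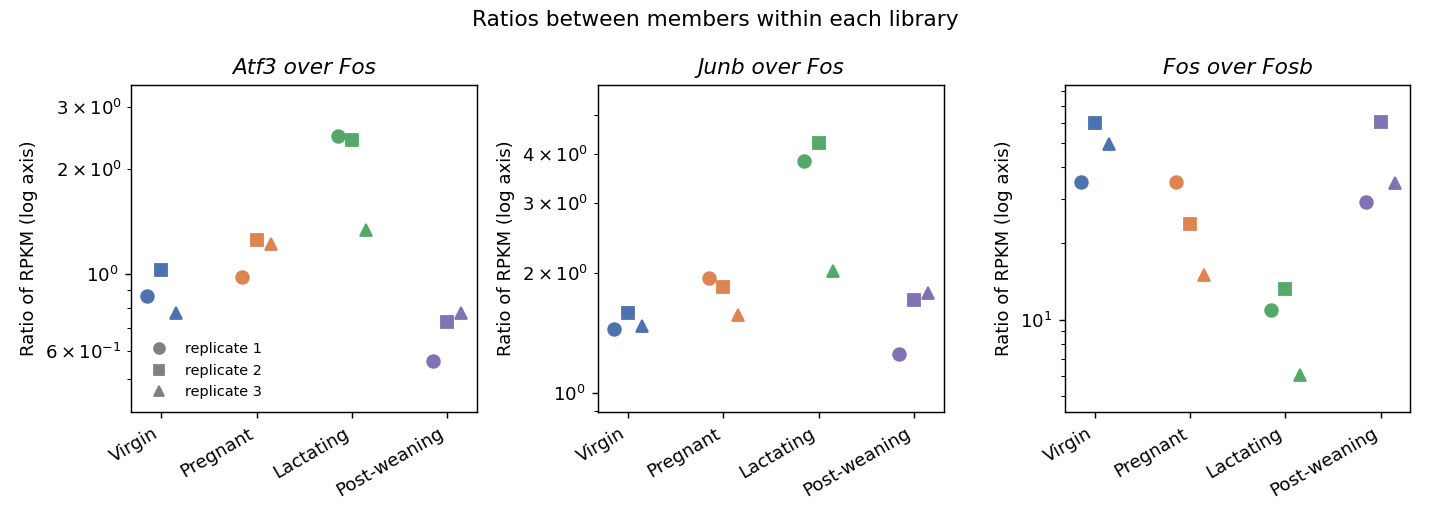
Ratios of RPKM between members within each library, on log axes, with 1 point per library: Atf3 over Fos, Junb over Fos and Fos over Fosb. The 3 lactating points lie above all others in the first and second panels (1.34 to 2.49 and 2.02 to 4.26) and below all others in the last (6.05 to 13.3).

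Among the 7, levels over the 12 libraries moved most closely together for Junb and Atf3 (Pearson r = 0.925 on log2 CPM) and for Fos and Jun (r = 0.856, and 0.965 without the third lactating library). Fosb moved most closely with Jund (r = 0.822), and the lowest of the 21 pairs was Fosb with Fosl2 (r = -0.146, and 0.299 without the third lactating library). These correlations over 12 libraries reflect the 4 stages as well as the libraries and carry no test. Among 7159 genes with a mean log2 CPM of at least 3, those most like the mean profile of the 7 were Btg2 (r = 0.932), an antiproliferative early response gene, Egr1 (r = 0.927), a zinc finger immediate early gene, and Klf6 (r = 0.926). Brd2, Zfp36, Phlda1, Kmt2e, Ppp1r15a, Emp3 and Fcgrt followed, with r between 0.908 and 0.925. Without the third lactating library r of these 10 genes was 0.920 to 0.961, and Klf6, Brd2, Btg2 and Ppp1r15a stayed among the 10 closest, whereas the other 6 ranked between 11 and 17. The closest genes to single members were Dusp1 (r = 0.982), Osm (r = 0.969) and Nr4a1 (r = 0.946) for Junb, and Mef2c (r = 0.981), Nr4a1 (r = 0.959) and Nfkbiz (r = 0.957) for Atf3. For Fos they were Hpgd (r = 0.926), Ier2 (r = 0.923) and Egr1 (r = 0.920), for Jun they were Anxa1 (r = 0.940), Hdac5 (r = 0.914) and Dnajb1 (r = 0.913), and for Fosl2 they were Coq10b (r = 0.952), Chd9 (r = 0.941) and Arih1 (r = 0.930). For Fosb they were Tpm2 (r = 0.883), Ccdc137 (r = 0.856) and Myo1c (r = 0.853), and for Jund they were Pxn (r = 0.919), Taf7 (r = 0.919) and Atf4 (r = 0.914). Without the third lactating library Nfkbiz ranked 14 for Atf3 and Atf4 ranked 12 for Jund, and the rest ranked between 1 and 9 for their member.

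The other immediate early and dissociation-response genes, a list of 37 tested genes that respond to the same kinds of signal and that freshly dissociated cells are known to switch on, had their lowest summed level in pregnancy too, although single genes did not all follow the sum and Dusp6 was lowest in lactation. In pregnant against virgin libraries 14 of the 37 fell and 0 rose (background 0.876% of all genes lower and 0.442% higher), with a median log2 fold change of -1.52, against 0.03 over all genes. Btg2 fell 4.34-fold (170.9 ± 39.6 CPM in pregnancy, against 741 ± 98.4 CPM in virgin mice, SD, n = 3 each, edgeR adjusted p = 0.00507). Klf6 fell 3.44-fold (edgeR adjusted p = 0.00507) and Ppp1r15a, which encodes a phosphatase subunit of the stress response, fell 4.81-fold (edgeR adjusted p = 0.00668). In lactating against pregnant libraries 16 rose and 1 fell (background 2.65% higher and 1.2% lower), with a median of 1.25, against -0.14. Dusp5, which encodes a nuclear phosphatase of ERK, rose 7.95-fold (205 ± 42.9 CPM in lactation, against 25.8 ± 2.05 CPM in pregnancy, edgeR adjusted p = 0.000276), and Gadd45b rose 5.23-fold (edgeR adjusted p = 0.000295). Dusp6, which encodes a cytoplasmic phosphatase of ERK, was the 1 gene that fell, 6.85-fold (18.2 ± 8.09 CPM in lactation, against 125.8 ± 29.7 CPM in pregnancy, edgeR adjusted p = 0.00193).

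In post-weaning against pregnant libraries 10 of the 37 rose and 0 fell (background 0.576% higher and 0.142% lower), led by Gadd45b, Ppp1r15a and Btg2 (edgeR adjusted p = 0.0122, 0.0150 and 0.0156). In lactating against virgin libraries 1 rose (Dusp5) and 3 fell (Dusp6, Ier5 and Egr1), beside 1.04% of all genes higher and 0.9% lower. Egr1 had 601, 269 and 659 CPM in lactating libraries, against 977, 1797 and 1797 CPM in virgin libraries (edgeR adjusted p = 0.0389). In post-weaning against lactating libraries Dusp6 rose and Dusp5 fell (edgeR adjusted p = 0.00534 and 0.0133), beside 0.458% of all genes higher and 0.466% lower. In post-weaning against virgin libraries edgeR called 0, with 5 of the 37 at an unadjusted p under 0.05, DESeq2 called 1 and limma-voom 0. The summed level of the list was 15958, 21929 and 22714 CPM in virgin, 7897, 6610.3 and 6625 CPM in pregnant, 18432, 16516 and 12863 CPM in lactating and 18516, 17827 and 17809.6 CPM in post-weaning libraries. It was lowest in the same 3 libraries as the sum of the 7 genes, and what part cell sorting has in either was not tested. Without the third lactating library the count was 21 lower in pregnant against virgin (beside 2.09% of all genes), 19 higher and 2 lower in lactating against pregnant (3.31% and 1.82%), 20 higher in post-weaning against pregnant (1.69%), and 2 higher and 6 lower in lactating against virgin libraries (1.76% and 1.34%). Other libraries lowered the counts. The 14 calls in pregnant against virgin libraries were 7 to 9 without virgin library 2 or 3 or any 1 pregnant library, and the 17 in lactating against pregnant libraries were 11 without pregnant library 2 and 5 in the fit to 6 libraries. The 10 in post-weaning against pregnant libraries were 5 without pregnant library 1, 1 without post-weaning library 1 and 0 without any 1 of the other pregnant or post-weaning libraries, while DESeq2 called 20 and the fit to 6 libraries 25. The 4 in lactating against virgin libraries were 2 in 9 of 12 fits that left out a library, and the Ier5 call was lost in all but those without virgin library 1 or lactating library 3. The Dusp5 call in post-weaning against lactating libraries was lost without post-weaning library 2 or 3. Btg2, Klf6 and Ppp1r15a in pregnant against virgin libraries and Dusp5, Gadd45b and Dusp6 in lactating against pregnant libraries kept their calls without any 1 of the 12 libraries. In post-weaning against pregnant libraries Gadd45b lost its call in 4 of 12 such fits and Ppp1r15a and Btg2 in 5, each of them without a pregnant or post-weaning library.

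**Figure D5:**
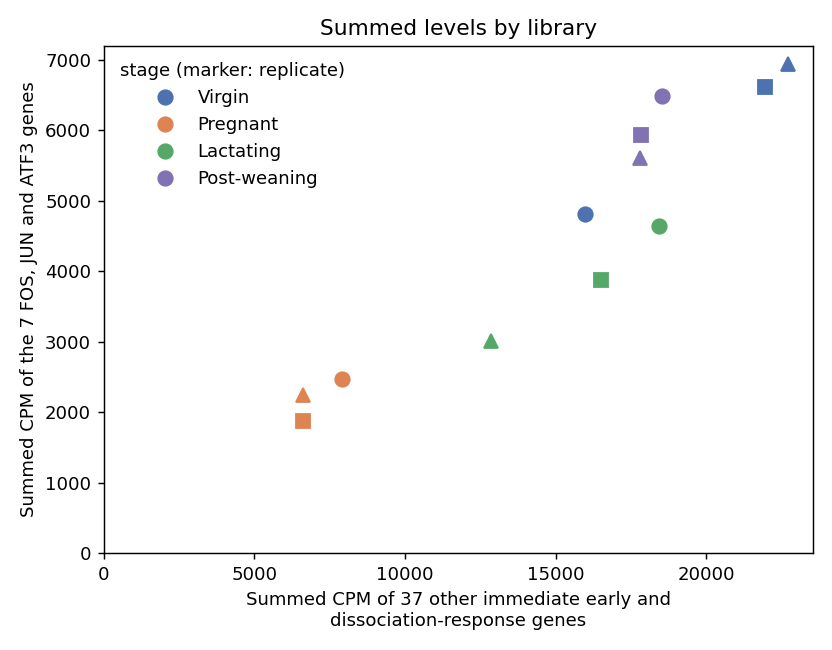
Summed CPM of the 7 genes against the summed CPM of 37 other immediate early and dissociation-response genes, 1 point per library, coloured by stage. The 3 pregnant libraries lie lowest on both axes (1873 to 2468 and 6610.3 to 7897 CPM), and the first lactating library, at 18432 CPM of the other genes, lies at 4637 CPM of the 7, below the post-weaning libraries (5607 to 6483 CPM).

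Other parts of the pathway were counted in the same fit, and the shares of all genes called given above apply to each list below. Between 765 and 2357 of the 12672 tested genes had an unadjusted p under 0.05, depending on the comparison. Of 12 other AP-1 dimer partners, 1 fell in pregnant against virgin libraries, beside 0.876% of all genes lower. In lactating against pregnant libraries 1 rose, beside 2.65% of all genes higher. In both cases it was Jdp2, which encodes a partner of JUN that represses transcription. Jdp2 had 375, 511 and 476 CPM in lactating, against 148, 123 and 148 CPM in pregnant libraries (3.25-fold, edgeR adjusted p = 0.000797), and 253, 295 and 272 CPM in virgin libraries. Its fall in pregnancy against virgin libraries (1.96-fold, edgeR adjusted p = 0.0359) was lost in 9 of 12 fits that left out a library, all but those without lactating library 1 or 3 or post-weaning library 1. The median log2 fold change of the partners was -0.86 in pregnant against virgin libraries, against 0.03 for all. In the other 4 comparisons edgeR called 0 of the partners, with 0 to 4 at an unadjusted p under 0.05, 0 to 2 called by DESeq2 and 0 by limma-voom.

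Of 24 other basic leucine zipper factors, Cebpb, which encodes a myeloid factor, fell 2.15-fold in pregnant against virgin libraries (482 ± 118 CPM, against 1038 ± 268 CPM, SD, n = 3 each, edgeR adjusted p = 0.0471), a call lost in 10 of 12 fits that left out a library. Cebpb rose 3.27-fold in lactating against pregnant libraries (edgeR adjusted p = 0.0026) and 2.84-fold in post-weaning against pregnant libraries (edgeR adjusted p = 0.0184), a call lost without pregnant library 2 or 3 or any 1 post-weaning library. Creb5 and Bach1 also rose in lactating against pregnant libraries (edgeR adjusted p = 0.0247 and 0.0498). The Creb5 call was lost without lactating library 3 or any 1 pregnant library, and the Bach1 call was kept only without lactating library 3. The 36 tested genes of MAP kinase signalling belong to the kinase chain that activates AP-1 proteins and the factors on their promoters. Of these edgeR called Map2k3 in 3 comparisons and no other gene. Per comparison 1 to 6 of the 36 had an unadjusted p under 0.05, DESeq2 called 0 to 3 and limma-voom 0 to 2. Map2k3, a kinase that activates p38, had 651, 667 and 565 CPM in lactating, against 107, 77.3 and 90 CPM in pregnant libraries (6.87-fold, edgeR adjusted p = 0.000295), and 215, 409 and 408 CPM in virgin libraries (3.76-fold lower in pregnancy, edgeR adjusted p = 0.00702). It rose 4-fold in post-weaning against pregnant libraries (edgeR adjusted p = 0.0103), a call lost without pregnant library 2 or 3 or post-weaning library 3. Of 18 regulators bound at Fos and Jun promoters, Mef2c was the 1 gene called by edgeR. It was 4.3-fold lower in pregnant than in virgin libraries (41.4 ± 2.92 CPM, against 178 ± 66.2 CPM, edgeR adjusted p = 0.0232). This call was lost without virgin library 2 or 3 or any 1 pregnant library. Depending on the comparison 0 to 5 of the 18 had an unadjusted p under 0.05, DESeq2 called 0 to 4 and limma-voom 0 to 1. Of 15 genes of AP-1 protein turnover and activity edgeR called 0 in every comparison, with 0 to 2 at an unadjusted p under 0.05, 0 to 2 called by DESeq2 and 0 by limma-voom.

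Among 12 genes for proteins that bind AU-rich elements, the known decay signal of such mRNAs, Zfp36 and Zfp36l1 fell in pregnant against virgin libraries. Zfp36, which encodes the decay factor tristetraprolin, had 595, 454 and 571 CPM in pregnant, against 1093, 1673 and 1717 CPM in virgin libraries (2.77-fold lower, edgeR adjusted p = 0.0102), a call lost without virgin library 2 or pregnant library 2. Zfp36l1 was 3.24-fold lower (edgeR adjusted p = 0.00761), a call lost without pregnant library 2. Zfp36 rose 2.37-fold in lactating against pregnant libraries (edgeR adjusted p = 0.01) and 2.51-fold in post-weaning against pregnant libraries (edgeR adjusted p = 0.0231). The lactating call was lost without pregnant library 2, and the post-weaning call without any 1 of the pregnant or post-weaning libraries. Zfp36l2 was 1.8-fold lower in lactating than in virgin libraries (edgeR adjusted p = 0.0389), kept only without lactating library 3, and 2.15-fold higher in post-weaning than in lactating libraries (edgeR adjusted p = 0.0196), lost without post-weaning library 2 or 3. Tia1, which encodes a translational silencer, had 0.347, 0.548 and 0 CPM in lactating libraries, against 11.2, 21.1 and 15.4 CPM in post-weaning libraries (edgeR adjusted p = 0.0346). The post-weaning call was lost in 8 of 12 fits that left out a library, all but those without virgin library 2 or 3 or lactating library 2 or 3. In lactation Tia1 also fell against pregnant libraries with 13.6, 15.4 and 12.8 CPM (edgeR adjusted p = 0.0148) and against virgin libraries (edgeR adjusted p = 0.0187), calls lost without pregnant library 2 and without virgin library 1.

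Textbook AP-1 target genes, 27 of them tested, include proteases, cytokines and stress genes. In pregnant against virgin libraries 2 fell (Sqstm1 and Hbegf) and 1 rose (Acp5), and in lactating against pregnant libraries 8 rose and 0 fell, beside 2.65% of all genes higher. Their median log2 fold change was -0.43 and 1.05 in these comparisons, against 0.03 and -0.14 for all genes. The targets did not follow the 7 members throughout. In lactating against virgin libraries the target median was 0.89, against -0.46 for the 7 and -0.06 for all genes. For post-weaning against lactating libraries it was -0.71, against 0.08 for the 7 and 0.08 for all. Post-weaning libraries gave target medians of 0.82 against pregnant and 0.29 against virgin libraries (the 7 members 1.36 and 0.07). Sqstm1, which encodes an autophagy receptor, had 2039, 2025 and 2424 CPM in lactating, against 447, 485 and 470 CPM in pregnant libraries (4.63-fold, edgeR adjusted p = 0.000148). Hbegf rose 8.16-fold (edgeR adjusted p = 0.00528) and Hmox1 4.95-fold (edgeR adjusted p = 0.00578). Il1b, Plau, Mmp12, Tnf and Mmp13 rose with edgeR adjusted p between 0.0061 and 0.0462. Il1b had 9048, 6621 and 2722 CPM in lactating libraries, Mmp12 10754, 10449 and 2946 CPM and Tnf 1447, 1309 and 361 CPM. The Mmp13 groups overlapped, with 739 CPM in the third lactating library and 814 CPM in the first pregnant library. In lactating against virgin libraries Acp5, which encodes the tartrate-resistant phosphatase of osteoclasts and some macrophages, rose 3.73-fold (edgeR adjusted p = 0.00509). Sqstm1 rose 2.13-fold there (edgeR adjusted p = 0.0112), a call lost without virgin library 1 or 3 or with library totals in place of TMM. In post-weaning against pregnant libraries Sqstm1 was the 1 target called, higher, and in post-weaning against lactating libraries it was the 1 called, lower (edgeR adjusted p = 0.03 and 0.00987). The call against pregnant libraries was lost in 9 of 12 fits that left out a library, all but those without virgin library 1 or 2 or lactating library 3, and with library totals. The call against lactating libraries was lost without any 1 post-weaning library. Of the 27 targets, 10 in post-weaning against pregnant and 13 in post-weaning against lactating libraries had an unadjusted p under 0.05. DESeq2 called 5 and 4 there, and limma-voom 1 and 2. In post-weaning against virgin libraries edgeR called 0 targets, with 2 at an unadjusted p under 0.05, and DESeq2 and limma-voom 0. In pregnant against virgin libraries the Acp5 call was lost in 9 of 12 fits that left out a library, that of Hbegf in 5 and that of Sqstm1 in 4, whereas Sqstm1, Hbegf and Hmox1 in lactating against pregnant libraries kept theirs in all 12. Without the third lactating library 28 targets were tested. Of these, 9 were higher in lactating against virgin (beside 1.76% of all genes), 14 higher in lactating against pregnant (3.31%), 7 lower in post-weaning against lactating (0.968%), 7 higher and 1 lower in post-weaning against pregnant (1.69% and 0.603%), and 5 lower and 1 higher in pregnant against virgin libraries (2.09% and 1.18%).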

How the data were processed

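RNA was measured in 12 libraries of sorted mammary ductal macrophages. Per the labels' protocols, cDNA was made from few cells with a SMART-Seq v4 kit, without molecular identifiers, so PCR copies are counted, and all libraries were sequenced in 1 run. The authors deposited raw counts per gene with the length of each gene. Per the submitters' processing notes the counts came from featureCounts and mm10, and the aligner, strand setting and annotation used are not named there. Symbols and coordinates came from RefSeq for GRCm38.p6 (the mm10 assembly), where 25275 of 27179 genes matched.

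Groups follow the labelled stage. Genes were filtered with filterByExpr (12672 kept), scaled by TMM and fitted in edgeR 4.0.16 (R 4.3.3) with 1 robust quasi-likelihood model of 4 stage means, and p-values were adjusted by Benjamini-Hochberg over all 12672 genes. The common biological coefficient of variation was 0.856. The SE is the log2 fold change divided by the root of the F statistic. Fold changes are from the fit, means and SDs from CPM of the filtered totals. RPKM used the deposited lengths. Correlations used log2 CPM with a prior count of 2. The fit was also run on simulated counts with a smaller spread than in these data, so that run gives no error rates here. The members, gene lists and tests were chosen with earlier results of these data known. Named genes are the 7 members, up to 3 called genes of each list and comparison with the smallest adjusted p, the 10 genes most like the mean of the members and the 3 most like each. Further genes named beside a small count were chosen after their values were seen. Alternatives were DESeq2 1.42.0, limma-voom (limma 3.58.1), other scaling, no filter, a replicate block, fits to 6 libraries and leaving out each library.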

Additional observations from a re-analysis of the deposited data

How the results depend on the processing

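The number of genes called by edgeR was 167 in pregnant against virgin, 246 in lactating against virgin, 0 in post-weaning against virgin, 488 in lactating against pregnant, 91 in post-weaning against pregnant and 117 in post-weaning against lactating libraries. In the same order DESeq2 called 656, 1173, 125, 1465, 502 and 919 genes, and limma-voom 298, 248, 11, 670, 167 and 201. Fits to the 6 libraries compared called 230, 0, 1, 147, 590 and 3 genes. The replicate block called 100, 139, 0, 346, 35 and 42 genes. Same-numbered libraries did not deviate together (18 pairs, r between -0.0683 and 0.0726), and 5 of 12 libraries were closest to their own number, so the libraries share only a number. Leaving out 1 library gave 40 to 438, 111 to 416, 0 to 10, 194 to 689, 1 to 308 and 26 to 242 genes, the highest each time without lactating library 3. RLE size factors, library totals and no filter kept these counts within 1.5 times.

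Of the 7 members, 3, 1, 0, 1, 2 and 1 were called by edgeR. DESeq2 called 6, 1, 0, 4, 5 and 1, limma-voom 4, 1, 0, 1, 2 and 1, the replicate block 1, 1, 0, 1, 1 and 1, and fits to 6 libraries 5, 0, 0, 0, 5 and 0. Library totals without TMM called 3, 1, 0, 0, 2 and 1, and leaving out 1 library gave 1 to 5, 1 to 2, 0 to 0, 0 to 2, 0 to 4 and 1 to 2. The 4 Fos calls were kept under DESeq2, limma-voom, RLE, library totals, no filter and the block, and fits to 6 libraries lost those in lactating against virgin and post-weaning against lactating libraries. Library totals moved the median of all genes to -0.28 in lactating against virgin, -0.43 in lactating against pregnant and 0.29 in post-weaning against lactating libraries.

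The direction of some members turned. In lactating against pregnant libraries Fos was -0.23 with library totals and 0 with no filter, and Fosl2 was -0.01 in limma-voom. With 1 library left out, the log2 fold changes in that comparison ran from -0.09 to 0.16 for Fos, -0.13 to 1.38 for Fosl2 and -0.44 to 0.87 for Jun. In post-weaning against virgin libraries they ran from -0.08 to 0.2 for Fos, -0.03 to 0.22 for Junb, -0.22 to 0.64 for Jund, -0.4 to 0.11 for Jun and -0.01 to 0.7 for Fosb. In post-weaning against lactating libraries they ran from -0.35 to 1.14 for Fosl2, -0.76 to 0.1 for Fosb and -0.12 to 0.37 for Atf3. The cause of these shifts was not tested. Over the alternatives that kept all libraries of a comparison, named list genes stayed called in 264 instances and lost the call in 44, all in the same direction. The replicate block called 4 of the 37 immediate early genes in post-weaning against pregnant libraries, where edgeR without it called 10, and lost the calls of Zfp36, Cebpb and Sqstm1 there. The libraries held 6926273 to 21204704 counts, and what part depth has in the precision was not tested.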
